A study of Mus musculus with 17 samples.

Results

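Potassium channels of the inward rectifier (Kcnj), two-pore domain (Kcnk), calcium-activated (Kcnma, Kcnmb and Kcnn) and sodium-activated (Kcnt) families were examined in the hippocampus of mice after sleep deprivation. Members were the probe sets annotated with exactly 1 gene symbol beginning with those stems followed by a digit. This gave 71 probe sets for 39 genes, out of 34945 probe sets with a single symbol for 18193 genes. There were 15 inward rectifier genes, 12 two-pore genes, 10 genes of calcium- and sodium-activated channels with their beta subunits, and 2 antisense transcripts of Kcnmb4 that share its name. A gene was represented by its brightest probe set, the one with the highest mean over all arrays. Of the 42 genes with such names in the RefSeq table of assembly GRCm38.p6, Kcnk9, Kcnk18 and Kcnmb3 had no probe set under this rule and were not analysed here.

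The animals were adult male C57BL/6J mice, housed singly; the sample labels put their age at 2 months and the growth protocol at 2 to 4 months. Every animal had been handled daily for 6 days. The sleep-deprived group, 8 mice, was then kept awake in the home cage for 5 h by gentle handling early in the light phase, and the undisturbed group, 9 mice, stayed in the home cage without disturbance over that time. There was no group that was handled for the same hours and then left to sleep, so loss of sleep and the handling cannot be told apart. Each hippocampus was read on its own Affymetrix mouse array, and all values are log2 signals, on which a difference of 1 is a doubling.

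Potassium channels let potassium leave the cell and so hold the membrane near its resting voltage. Inward rectifiers pass current mostly near rest: the Kir3 or GIRK channels open when G protein beta-gamma subunits are freed by inhibitory receptors, the Kir6 channels close when ATP is plentiful, and Kir4.1 of astrocytes takes up potassium released by firing neurons. Two-pore channels carry the leak current that sets resting potential and excitability. Calcium-activated channels (the large-conductance BK and the small-conductance SK channels) shorten the action potential or follow it with an afterhyperpolarisation, and sodium-activated channels do the latter after bursts. In the hippocampus these channels set how readily pyramidal and granule cells fire.

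All 10 measured marker genes of hippocampal principal neurons were present, with mean signals from 7.38 to 13.6, and none of them passed the test between groups. Array medians lay between 6.13 and 6.22, and the lowest correlation of an array with the median array was 0.997. The 3′ minus 5′ signal of actin, a sign of RNA quality, was 0.913 on the array of sleep-deprived replicate 5 and between 0.486 and 0.679 on the other 16. The same measure for Gapdh was -0.078 on that array and between -0.18 and -0.020 on the other 16. The signal of Ttr, the main transcript of choroid plexus, ranged from 8.02 to 14.1 in undisturbed and from 7.12 to 14.3 in sleep-deprived animals. Since RNA of the whole dissected hippocampus was measured, fewer cells of a type and less RNA per cell cannot be told apart. Precision is limited by the number of arrays.

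After sleep deprivation 3 of the 39 members fell and none rose. They were Kcnj3, which encodes GIRK1, the subunit that most neuronal GIRK channels share; Kcnj4, which encodes the strong inward rectifier Kir2.3; and Kcnk2, which encodes the leak channel TREK-1. The falls were small, between 1.15-fold and 1.25-fold. Across all genes 2.73% fell (496 of 18193) and 1.25% rose (227 of 18193) at an adjusted p of 0.05 in limma; after quantile normalization these counts were 390 and 336, and after cyclic loess 432 and 341. They also moved with single arrays: 307 fell without undisturbed replicate 4 and 312 without sleep-deprived replicate 5, and 150 rose without undisturbed replicate 8. The members' share of falls was 7.69%. At an unadjusted p under 0.05 in limma 4 members were lower (10.9% of all genes were) and 1, Kcnn1, was higher (7.65% of all genes were). At an adjusted p of 0.05 an unequal-variance test, like limma, called no member higher. The median difference, sleep-deprived minus undisturbed, was -0.0091 over the 39 members and 0.0016 over all genes. Of the members 21 had negative and 18 positive differences, or 53.8% negative, beside 49.2% of all genes.

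The signs differed by signal level, among the members as among all genes. Of the 26 members with a mean signal of 6 or more, 18 had negative differences (69.2%), beside 60.2% of all genes at such a level, and their median was -0.042 beside -0.023. Among genes at such a level 3.95% fell, and 3 of these 26 members did (11.5%). None of the 13 dimmer members passed in limma or at an unadjusted p under 0.05, 3 of them had negative differences (23.1%), and their median was 0.059. Of all 6182 genes under that level 27.7% were negative, with a median of 0.039, and 22 fell and 32 rose.

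**Figure D1:**
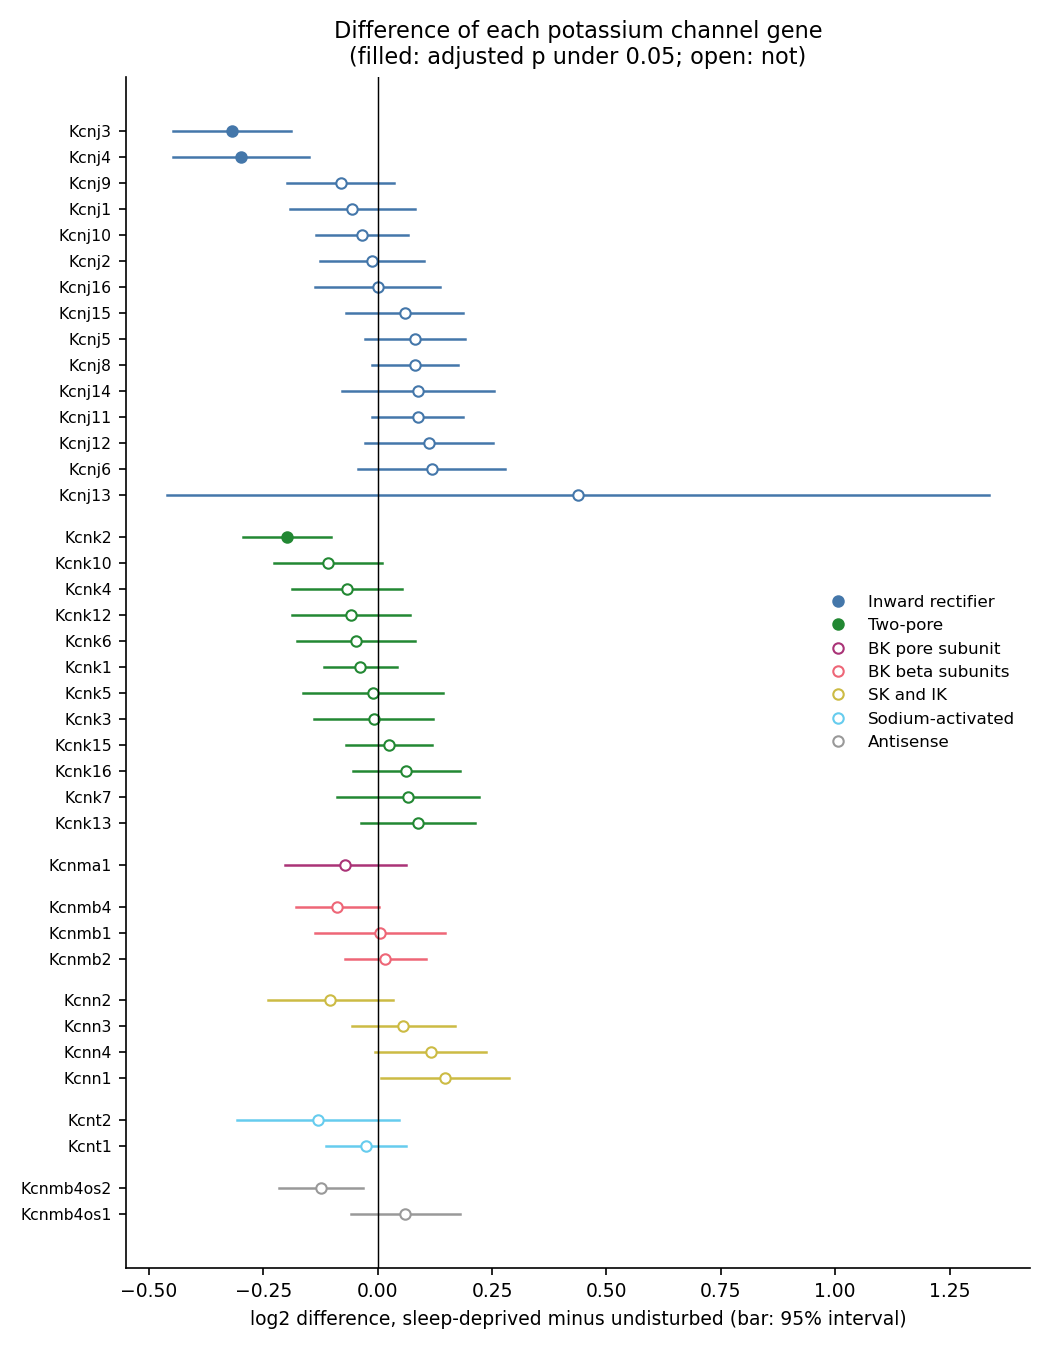
Log2 difference, sleep-deprived minus undisturbed, of each of the 39 genes through its brightest probe set (circle), with its 95% interval (bar) from limma on 8 and 9 arrays; genes are ordered within families, and filled circles passed an adjusted p of 0.05. Kcnj3, Kcnj4 and Kcnk2 are the 3 filled circles, at -0.32, -0.30 and -0.20, and the interval of Kcnj13 is several times as wide as any other.

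Kcnj3 (probe set 1455374_at) gave the largest fall among the 39. In undisturbed mice its signal ran from 9.89 to 10.22 with a median of 10.09, and in sleep-deprived mice from 9.51 to 9.91 with a median of 9.83. The groups touched at 1 undisturbed animal: 8 of 9 undisturbed arrays lay above the highest sleep-deprived one, and 5 of 8 sleep-deprived arrays lay below every undisturbed one. The mean fell from 10.08 ± 0.10 (SD, n = 9) to 9.76 ± 0.17 (SD, n = 8), a difference of -0.32 (SE 0.062, limma adjusted p = 0.0053), or 1.25-fold. Leaving out each array in turn kept the call in 17 of 17 cases, with adjusted p between 0.0038 and 0.013.

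The other probe sets of Kcnj3 gave smaller differences, and the call rests on the brightest. The next one in signal (mean 8.57) was lower by a difference of -0.24, in all 8 sleep-deprived animals below the undisturbed mean, and missed the threshold (adjusted p over all probe sets = 0.094). The third (mean 8.33) differed by -0.083 and the dimmest (mean 5.35) by -0.0029, with adjusted p of 0.55 and 0.99. When the 4 probe sets were averaged, the difference of Kcnj3 was -0.16 and did not pass (adjusted p = 0.10). When the brightest was set against each other probe set within the same array, the gap in response was -0.31 ± 0.18 (95% interval) against the dimmest (adjusted p = 0.069) and -0.24 ± 0.16 against the third (adjusted p = 0.15). Neither passed after adjustment over the 16752 such pairs of all genes, though without sleep-deprived replicate 4 the gap to the dimmest was -0.35 and passed (limma adjusted p = 0.045). The dimmest has a mean signal under 6, and RMA compresses differences of dim probe sets. Whether the probe sets read transcripts that changed unequally was not tested.

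Kcnj4 (probe set 1451808_at), measured by 1 probe set, ran from 8.21 to 8.64 with a median of 8.41 in undisturbed mice, and from 7.72 to 8.34 with a median of 8.17 in sleep-deprived mice. The lowest value of all was that of sleep-deprived replicate 2, and 5 of 8 sleep-deprived arrays lay below every undisturbed array. The mean fell from 8.43 ± 0.13 (SD, n = 9) to 8.13 ± 0.19 (SD, n = 8), a difference of -0.30 (SE 0.072, limma adjusted p = 0.020), or 1.23-fold. The spread was wider in the sleep-deprived group, and the call was lost in the test that allows unequal variances (adjusted p = 0.075). It was also lost with the replicate number as a block. Without sleep-deprived replicate 2 the difference was -0.24 and still passed (adjusted p = 0.028).

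Kcnk2 (probe set 1449158_at), also read by 1 probe set, gave the narrowest groups of the 3. Its signal ran from 9.62 to 9.90 with a median of 9.71 in undisturbed and from 9.40 to 9.62 with a median of 9.53 in sleep-deprived animals. The ranges met only at their edges: 7 of 8 sleep-deprived arrays lay below every undisturbed one. The mean fell from 9.71 ± 0.087 (SD, n = 9) to 9.51 ± 0.090 (SD, n = 8), a difference of -0.20 (SE 0.046, limma adjusted p = 0.018), or 1.15-fold. TREK-1 is opened by stretch, arachidonic acid and volatile anaesthetics and closed by protein kinase A.

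In no member did the 2 groups of arrays fail to overlap, where 0.731% of all genes had groups that did not overlap. With the mean choroid plexus signal as a covariate the differences of Kcnj3, Kcnj4 and Kcnk2 were -0.30, -0.29 and -0.20, and all 3 still passed (adjusted p = 0.010, 0.033 and 0.028). None of the 10 principal neuron markers, the 8 interneuron markers or the 10 astrocyte markers passed in either direction. The mean signal of the principal neuron markers ran from 11.17 to 11.44 in undisturbed and from 11.05 to 11.39 in sleep-deprived animals, with a median difference of -0.050 over its genes. Their differences ran from -0.21 in Neurod6 (limma adjusted p = 0.17) to 0.078 in Neurod2 (limma adjusted p = 0.44). Markers of other cell types fell in the same comparison: Slco1a4 and Tek among 9 endothelial markers, Pdgfrb among 10 pericyte markers and Opalin among 9 oligodendrocyte markers. The part of these lists in the falls was not tested. Sleep-deprived replicate 5, with the high actin value, had the lowest Kcnj3 signal (9.51); without it the differences of Kcnj3, Kcnj4 and Kcnk2 were -0.28, -0.31 and -0.18 and all 3 passed (adjusted p = 0.011, 0.032 and 0.038).

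**Figure D2:**
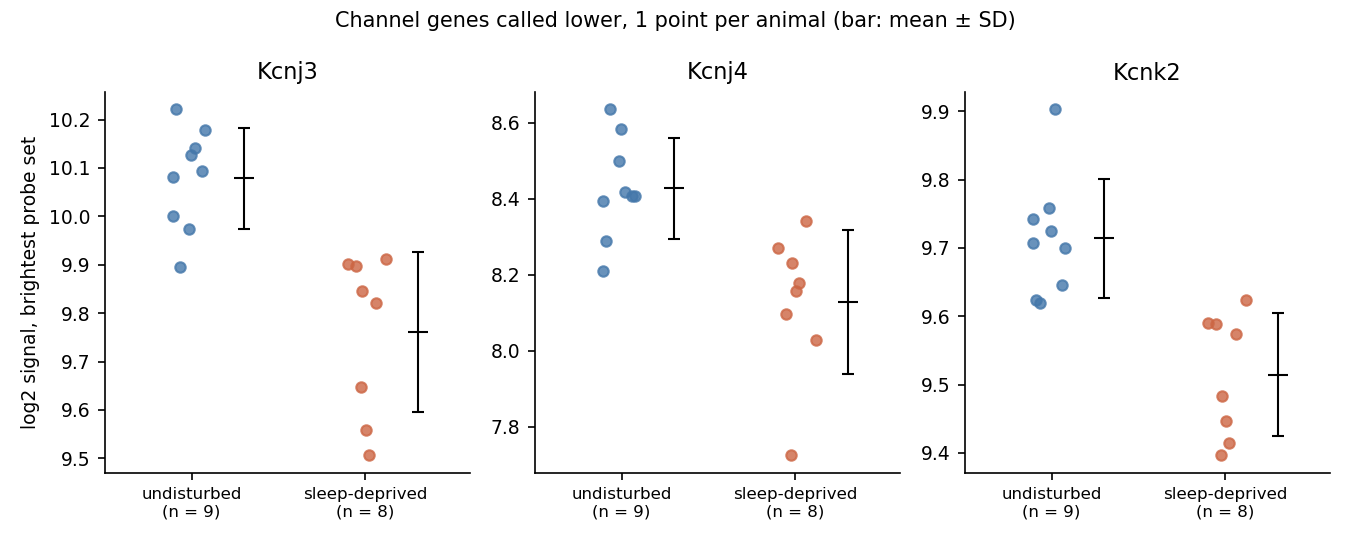
Log2 signal of Kcnj3, Kcnj4 and Kcnk2 in each animal (points; blue, 9 undisturbed; orange, 8 sleep-deprived), with the mean and SD of each group beside them. In each panel all 8 sleep-deprived animals lie below the undisturbed mean, and the ranges of the groups touch or overlap.

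Because these 3 genes fell in the same comparison, the bases before their transcription starts are shown, from RefSeq (GRCm38.p6), 250 bases up to the base before the start, 5′ to 3′ on the gene's strand. Kcnk2 has 4 annotated starts and the window before the farthest upstream is given. Capitals mark matches, on either strand, to a GC box (GGGCGG) or a CCAAT box (CCAAT).
Kcnj3, chr2:55435720-55435969, plus strand: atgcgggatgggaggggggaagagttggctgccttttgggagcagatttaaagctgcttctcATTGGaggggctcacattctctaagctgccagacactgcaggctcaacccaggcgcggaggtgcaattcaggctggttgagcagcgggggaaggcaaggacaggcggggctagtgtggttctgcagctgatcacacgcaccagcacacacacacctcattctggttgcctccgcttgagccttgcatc
Kcnj4, chr15:79505242-79505491, minus strand: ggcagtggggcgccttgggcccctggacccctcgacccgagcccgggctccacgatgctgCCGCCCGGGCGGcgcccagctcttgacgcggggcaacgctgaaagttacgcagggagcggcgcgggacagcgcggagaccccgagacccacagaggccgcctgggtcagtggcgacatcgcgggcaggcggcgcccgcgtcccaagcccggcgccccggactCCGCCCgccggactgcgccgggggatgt
Kcnk2, chr1:189402274-189402523, minus strand: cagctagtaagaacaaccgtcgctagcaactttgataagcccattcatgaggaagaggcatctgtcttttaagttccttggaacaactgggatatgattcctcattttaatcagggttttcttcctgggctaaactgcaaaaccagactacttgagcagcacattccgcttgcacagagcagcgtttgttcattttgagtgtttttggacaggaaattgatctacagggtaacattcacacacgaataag

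The 3 windows differ in composition, with 58.4% G and C before Kcnj3, 77.2% before Kcnj4 and 42.4% before this start of Kcnk2, where the median of all 32851 windows in the table is 52.4%. The windows before the other starts of Kcnk2 had 53.2%, 74.4% and 70.4%, so the low value belongs to the window shown. Kcnj4 held 3 GC boxes, of which 2 stand side by side, and Kcnj3 held 1 CCAAT box. The shown Kcnk2 window held neither, and of its other 3 windows 1 held a GC box and a CCAAT box. None of the 6 windows of these genes matched a cAMP response element (TGACGTCA), an E-box (CACGTG) or a D-box (TTANGTAA), all searched on both strands; matches to these stand in 1.55%, 6.02% and 2.06% of all windows. A GC box was found in 32.7% of all windows and in 43.9% of the 41 windows of the 32 members that the table holds, and a CCAAT box in 33.8% and 29.3%. The member windows were also richer in G and C, with a median of 58.4% beside 52.4%. The part of this in the GC box shares was not tested. Only matches of letters were counted, and no match overlapped another in the windows of the 3 genes.

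The other GIRK genes did not follow Kcnj3 past the threshold. Kcnj9, which encodes GIRK3, ran from 7.93 to 8.37 with a median of 8.15 in undisturbed and from 7.87 to 8.16 with a median of 8.10 in sleep-deprived mice, and its difference was -0.081 (95% interval -0.20 to 0.036, adjusted p = 0.46). A second Kcnj9 probe set of nearly equal signal (mean 8.01 beside 8.11) gave -0.17 with 7 of 8 animals below the undisturbed mean, and did not pass either (adjusted p over all probe sets = 0.22). Kcnj6, which encodes GIRK2, lay on the other side, from 5.89 to 6.48 in undisturbed and from 6.06 to 6.65 in sleep-deprived mice. Its difference was 0.12 (interval -0.043 to 0.28, adjusted p = 0.44), and 4 of its 5 probe sets were positive, none past the threshold. Kcnj5, which encodes the GIRK4 subunit best known from the heart, was dim (mean 4.89) and differed by 0.081 (interval -0.028 to 0.19).

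Among the strong inward rectifiers of the Kir2 family Kcnj4 alone passed. Kcnj2, which encodes Kir2.1, gave a signal of only 3.69 with a difference of -0.013 (interval -0.13 to 0.10). Kcnj12 and Kcnj14, for Kir2.2 and Kir2.4, had mean signals of 4.95 and 4.83 and differences of 0.11 and 0.087 (adjusted p = 0.39 and 0.59). These 3 signals lie in the dim range, so that little can be read from them.

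The glial and metabolic rectifiers kept close to their undisturbed level. Kcnj10, the gene of astrocytic Kir4.1, ran from 9.53 to 9.73 with a median of 9.59 in undisturbed and from 9.43 to 9.77 with a median of 9.54 in sleep-deprived mice, a difference of -0.035 (interval -0.14 to 0.066, adjusted p = 0.74). Its partner Kcnj16, for Kir5.1, had a mean of 7.38 in both groups (interval of the difference -0.14 to 0.14). None of 10 astrocyte markers passed. Kcnj11, the Kir6.2 pore of neuronal ATP-sensitive channels, differed by 0.087 (interval -0.012 to 0.19, adjusted p = 0.34), with 7 of 8 animals above the undisturbed mean. Kcnj8, for Kir6.1, which in brain is typical of pericytes, differed by 0.082 (interval -0.012 to 0.17, adjusted p = 0.34), also with 7 of 8 animals above. Of the 10 pericyte markers 1 fell, Pdgfrb (-0.37, adjusted p = 0.0049), and none rose. The sum of the list's log2 signals ran from 75.4 to 77.0 in undisturbed and from 75.1 to 77.1 in sleep-deprived mice. Of 9 endothelial markers Slco1a4 and Tek fell, by differences of -0.32 and -0.26 (adjusted p = 0.0057 and 0.040).

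Kcnj13, which encodes Kir7.1 of the choroid plexus and other transporting epithelia, varied more than any other member. It ran from 5.17 to 8.18 with a median of 6.22 in undisturbed and from 5.56 to 8.40 with a median of 6.31 in sleep-deprived mice, with SDs of 1.01 (n = 9) and 1.15 (n = 8). The SDs of the other members lay between 0.053 and 0.21 in undisturbed and between 0.037 and 0.24 in sleep-deprived mice. The 5 arrays with the highest Kcnj13 signal, from 7.60 upwards, were the 5 with the highest Ttr signal, from 13.8 upwards, and 2 of them were undisturbed and 3 sleep-deprived. On the other 12 arrays Kcnj13 did not exceed 6.91 and Ttr did not exceed 12.1. The group difference of Kcnj13 was 0.44 (SE 0.43, adjusted p = 0.62) and became -0.0084 (SE 0.16, adjusted p = 0.99) with the mean of 12 choroid plexus markers, Kcnj13 not among them, as a covariate. Over those markers the sum of log2 signals ran from 67.8 to 82.5 in undisturbed and from 66.8 to 85.2 in sleep-deprived mice. None of the 12 passed the test, and the lowest mean signal among them was 3.97. Kcnj1 (mean 4.70, difference -0.055) and Kcnj15 (mean 4.52, difference 0.059), best known from kidney epithelium, were dim and did not pass.

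**Figure D3:**
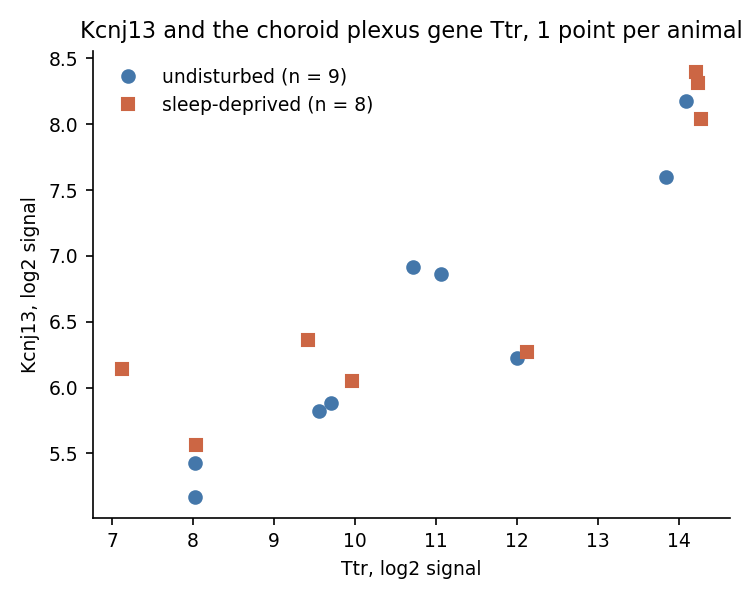
Log2 signal of Kcnj13 (vertical axis) against that of Ttr (horizontal axis) in each animal (circles, 9 undisturbed; squares, 8 sleep-deprived). The 5 animals with Ttr of 13.8 or more, 2 undisturbed and 3 sleep-deprived, are also the 5 with the highest Kcnj13.

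Apart from Kcnk2, no two-pore gene passed. The 2 genes closest to it in the family are Kcnk10 and Kcnk4, which encode TREK-2 and TRAAK. Kcnk10 ran from 6.06 to 6.34 with a median of 6.15 in undisturbed and from 5.88 to 6.39 with a median of 6.10 in sleep-deprived mice; 7 of 8 animals lay below the undisturbed mean, and the difference was -0.11 (interval -0.23 to 0.010, adjusted p = 0.32). Kcnk4 differed by -0.067 (interval -0.19 to 0.054, adjusted p = 0.57). Kcnk1, for TWIK-1, a channel of neurons and astrocytes, was tightly measured, with a range of 11.27 to 11.46 in undisturbed and 11.26 to 11.37 in sleep-deprived mice. Its difference of -0.038 (interval -0.12 to 0.043, adjusted p = 0.64) was within the spread between animals. Kcnk3, the acid-sensitive TASK-1, differed by -0.0091 (interval -0.14 to 0.12). A dimmer Kcnk3 probe set (mean 5.47) lay above its undisturbed mean in 8 of 8 sleep-deprived animals, with a difference of 0.12 that did not pass (adjusted p over all probe sets = 0.25).

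Kcnk13, for the microglial THIK-1, differed by 0.088 (interval -0.037 to 0.21, adjusted p = 0.46), and none of 9 microglial markers passed. Kcnk12, for THIK-2, differed by -0.058 and Kcnk6, for TWIK-2, by -0.047. Kcnk5, Kcnk7, Kcnk15 and Kcnk16 had mean signals between 4.10 and 5.79 and differences between -0.010 and 0.066. Over the 12 two-pore genes 8 differences were negative and the median was -0.024; over the 15 inward rectifiers 7 were negative and the median was 0.059.

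None of the 10 genes of calcium- and sodium-activated channels and their beta subunits passed in limma or in the unequal-variance test; 5 were negative and 5 positive, with a median of -0.011. Kcnma1, the pore-forming subunit of the BK channel, ran from 9.36 to 9.88 with a median of 9.69 in undisturbed and from 9.33 to 9.79 with a median of 9.60 in sleep-deprived mice. Its difference was -0.071 (interval -0.20 to 0.062, adjusted p = 0.59). The second of its 5 probe sets in signal (mean 7.99) gave -0.24, below the undisturbed mean in 7 of 8 animals, and did not pass (adjusted p over all probe sets = 0.25). Kcnmb4, the BK beta subunit of neurons, was lower in 7 of 8 animals, with a range of 10.21 to 10.42 in undisturbed and 10.05 to 10.36 in sleep-deprived mice, a difference of -0.089 (interval -0.18 to 0.0019, adjusted p = 0.28). The lowest Kcnma1 and Kcnmb4 values were those of sleep-deprived replicate 5. Kcnmb1, the beta subunit of smooth muscle, and Kcnmb2, which gives BK channels inactivation, differed by 0.0049 and 0.016.

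The antisense transcript Kcnmb4os2 lay below the undisturbed mean in all 8 sleep-deprived mice. It ran from 7.10 to 7.33 with a median of 7.24 in undisturbed and from 6.99 to 7.21 with a median of 7.10 in sleep-deprived mice. The difference of -0.12 (interval -0.22 to -0.033) had an unadjusted p of 0.010 in limma and did not pass (adjusted p = 0.12). The other antisense transcript, Kcnmb4os1, was dim (mean 3.97) and differed by 0.060.

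The SK genes pointed in both directions. Kcnn2, the SK2 gene of pyramidal cells, ran from 8.88 to 9.22 with a median of 8.96 in undisturbed and from 8.71 to 9.06 with a median of 9.00 in sleep-deprived mice; its difference in means was -0.10 although its median was higher, and it did not pass (interval -0.24 to 0.033, adjusted p = 0.42). Kcnn1, for SK1, was higher in 7 of 8 animals, by 0.15 (interval 0.0076 to 0.29, adjusted p = 0.24), and its second probe set gave 0.047. Kcnn3, for SK3, differed by 0.056 (mean 5.64). Kcnn4, for the intermediate-conductance channel of blood cells and microglia, differed by 0.12 through its brightest probe set and by -0.057 through a dimmer one, neither past the threshold. The sodium-activated Kcnt1 (Slack) and Kcnt2 (Slick) differed by -0.026 (interval -0.11 to 0.061) and -0.13 (interval -0.31 to 0.046), and for Kcnt2 7 of 8 animals lay below the undisturbed mean.

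For 32 of the 36 members that did not pass, the 95% interval of the difference lay within 1.2-fold in either direction. The 4 others were Kcnj6, Kcnj13, Kcnn1 and Kcnt2, all with a mean signal of 6 or more. All 13 members with a mean signal under 6 are thus among the 32. RMA compresses differences of dim probe sets, so little can be read from the intervals of those 13. Over all 71 member probe sets the same 3 passed, beside 1.81% of the 45037 probe sets tested. Of the 32 pairs of a brightest and another probe set of a member none differed in limma after adjustment (4 at an unadjusted p under 0.05), where 1.30% of all pairs did.

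**Figure D4:**
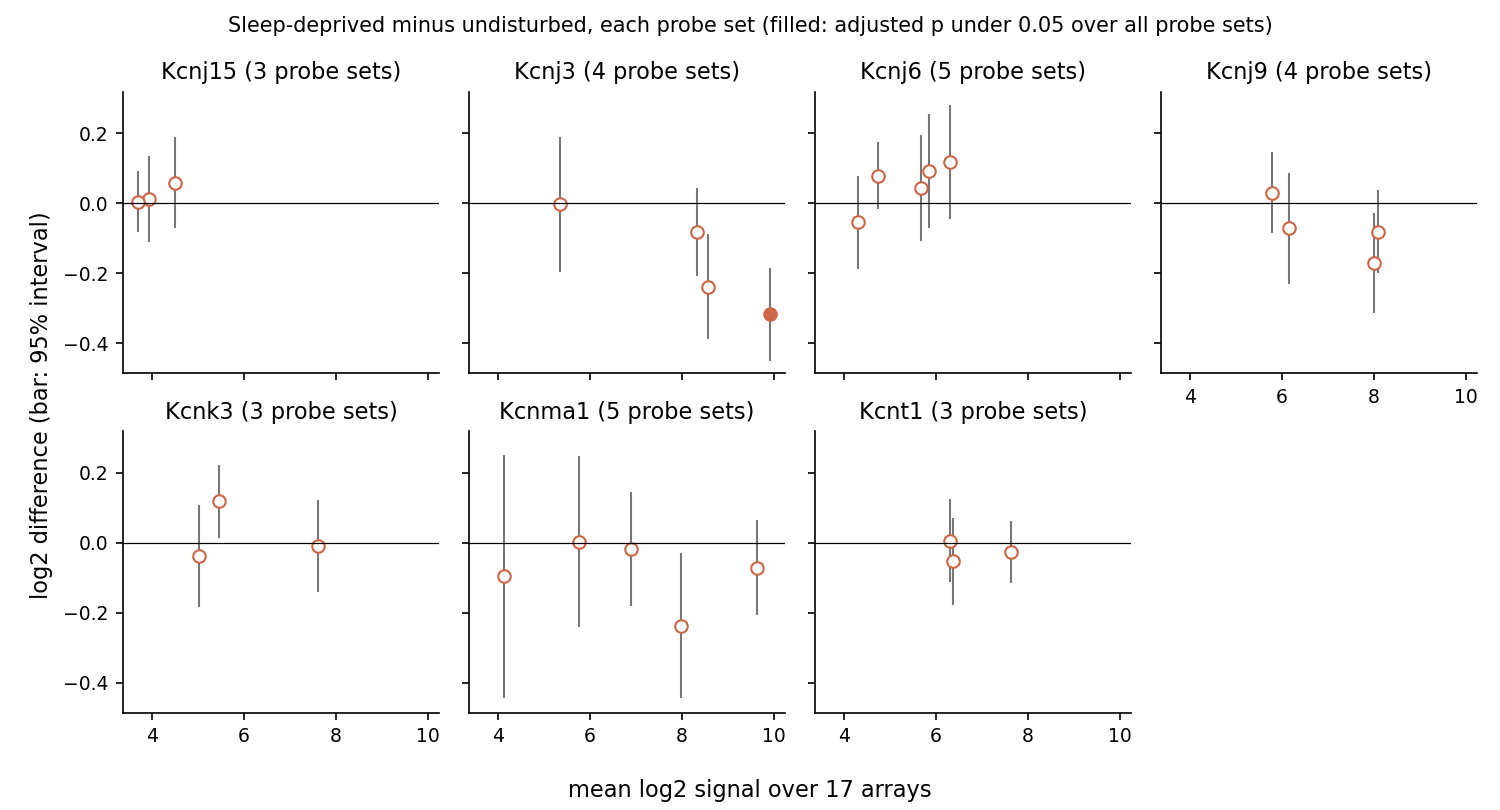
Log2 difference, sleep-deprived minus undisturbed, of each probe set (points, with 95% intervals) against its mean log2 signal, for the 7 genes with 3 or more probe sets; filled points passed an adjusted p of 0.05 over all probe sets. Kcnj3 has the 1 filled point, at a signal of 9.93, and its 3 dimmer probe sets lie nearer to 0.

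Genes that act on these channels were read from 4 lists, to be set beside the 2.73% of all genes that fell and the 1.25% that rose. Most of their measured genes had a mean signal of 6 or more, a level at which 3.95% of all genes fell and the median difference was -0.023; over all genes the median was 0.0016. Of 21 measured receptors that open GIRK channels through inhibitory G proteins, 1 rose and 1 fell, and the list's median difference was 0.029. Htr1a, the serotonin receptor that hyperpolarises pyramidal cells through GIRK channels, ran from 8.07 to 8.44 with a median of 8.31 in undisturbed and from 8.52 to 8.70 with a median of 8.61 in sleep-deprived mice. The groups did not overlap, a separation that 0.176% of all genes showed in this direction. Its mean rose from 8.30 ± 0.11 (SD, n = 9) to 8.61 ± 0.055 (SD, n = 8), by 0.31 (SE 0.046, adjusted p = 0.00042). Npy1r, a neuropeptide Y receptor, ran from 8.08 to 8.31 in undisturbed and from 7.93 to 8.14 in sleep-deprived mice and fell by 0.18 (adjusted p = 0.015), a call lost with the mean of its 2 probe sets (-0.099, adjusted p = 0.22). Gabbr1, a subunit of the GABA-B receptor, differed by 0.016 (interval -0.071 to 0.10). Of the 25 receptors listed, Gabbr2, Adora1, Chrm2 and Adra2a had no probe set annotated with that symbol alone and were not analysed.

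Of 27 G protein subunits and regulators of GIRK signalling, 2 fell (3.95% of all genes of mean signal 6 or more did, and 26 of the 27 lie there) and none rose, with a median of -0.051 beside -0.023. Gnb5, the beta subunit that pairs with RGS proteins of the R7 group and shortens GIRK responses, ran from 10.35 to 10.49 in undisturbed and from 10.22 to 10.34 in sleep-deprived mice, without overlap, which 0.555% of all genes showed in this direction. It fell by 0.14 (SE 0.037, adjusted p = 0.032). That call was lost in 5 of 10 alternatives, namely quantile normalization and cyclic loess (adjusted p = 0.10 and 0.096), the mean of its probe sets (0.17), adjustment over all probe sets (0.059) and the choroid plexus covariate (0.061), and without any 1 of 9 arrays (up to 0.064). Gnb4, a beta subunit that can join beta-gamma dimers, ran from 8.18 to 8.40 and from 7.91 to 8.19 and fell by 0.19 (adjusted p = 0.020; with the mean of its probe sets -0.080, adjusted p = 0.28).

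Among 20 partners of calcium-activated channels 1 rose and none fell. It was Lrrc38, a BK gamma subunit, read by a dim probe set: its signal ran from 4.90 to 5.14 in undisturbed and from 5.14 to 5.39 in sleep-deprived mice, and the difference was 0.19 (adjusted p = 0.018). Among 21 partners of ATP-sensitive, other inward rectifier and two-pore channels, Arf6 fell and Dtna rose. Arf6, a small GTPase of endosomal traffic, ran from 9.47 to 9.93 in undisturbed and from 9.26 to 9.63 in sleep-deprived mice and fell by 0.26 (adjusted p = 0.013). Dtna, a dystrobrevin of the complex that anchors Kir4.1 in astrocyte endfeet, ran from 9.86 to 10.19 and from 10.17 to 10.41 and rose by 0.24 (adjusted p = 0.0067). Both calls were lost when the probe sets of each gene were averaged (adjusted p = 0.41 and 0.52).

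**Figure D5:**
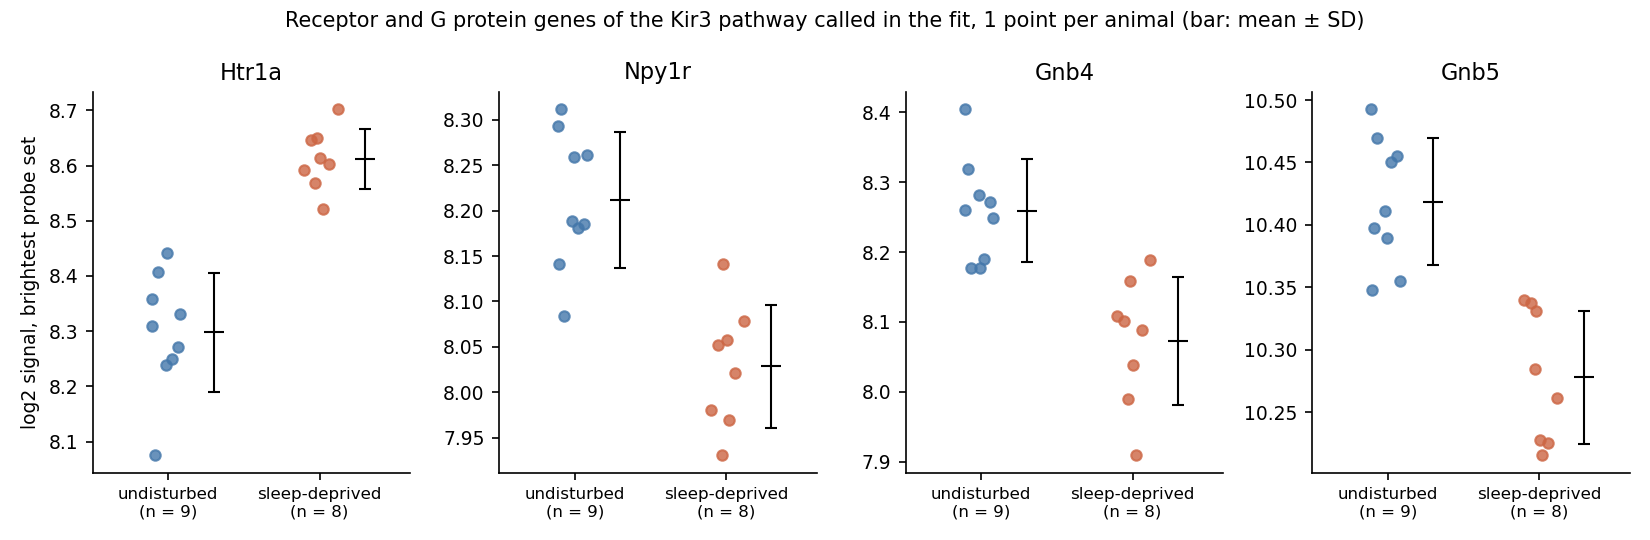
Log2 signal of the receptor genes Htr1a and Npy1r and the G protein genes Gnb4 and Gnb5 in each animal (points; blue, 9 undisturbed; orange, 8 sleep-deprived), with the mean and SD of each group. Htr1a is higher in every sleep-deprived animal than in any undisturbed one, Gnb5 is lower in every one, and Npy1r and Gnb4 overlap slightly.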

How the data were processed

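The authors deposited a table of log2 signals with 1 value for each probe set on each array. The submitters' processing notes name RMA and affy; for versions and filters: not given in the sources used here. Quantile steps in RMA make the arrays' distributions alike, which hides any shift common to most genes, and RMA compresses differences of dim probe sets. That the base is 2 was inferred from the size of the values. Arrays have no read depth, and their number limits the precision.

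Groups and replicate numbers came from the sample titles; replicates are separate animals, 1 array each, and no column of another sample was present. After leaving out 64 control probe sets, 45037 were tested. Names were those of the platform's annotation; 932 probe sets with several symbols and 9160 with none were not named. All 39 members matched the RefSeq table by symbol. Comparisons were fitted with limma 3.58.1 under R 4.3.3 (lmFit, eBayes) over 18193 genes, with Benjamini-Hochberg adjustment over all of them and a threshold of 0.05; SE and 95% intervals are moderated. Pairs of probe sets of a gene were fitted as within-array differences. The fits were also run on simulated data, drawn as independent normal values. The changes set there were larger than the difference of Kcnk2 and the probe set gaps of Kcnj3. How often changes of such sizes are found was not tested. The members, gene lists and tests were chosen with earlier results of these data known. Members were named with values where they, a probe set or a pair passed, where they belong to a list of main channel genes, or as the largest difference of a family, and list genes where they passed; the remaining members, for completeness, and Gabbr1 were chosen after their values were seen. Alternatives were a signal filter, quantile normalization, cyclic loess, the mean of all probe sets, adjustment over all probe sets, eBayes options, a replicate block, choroid plexus and RNA quality covariates, an unequal-variance test and each array left out.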

Additional observations from a re-analysis of the deposited data

Results flagged for a closer look

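In 92 groups of arrays (46 genes in each of 2 groups) the highest or lowest array was compared with its nearest neighbour, and 8 stood apart by Dixon's criterion; chance flags about 1 in 20 groups. Sleep-deprived replicate 4 was the lowest of its group for Kcnmb1 at 4.34 (next 4.78), for Kcnj1 at 4.43 (next 4.66) and for Kcnn4 at 6.33 (next 6.55). In undisturbed animals Kcnk2 was highest in replicate 4 at 9.90 (next 9.76), Kcnj10 in replicate 6 at 9.73 (next 9.63), Kcnj8 in replicate 9 at 6.95 (next 6.86) and Kcnn3 in replicate 5 at 5.93 (next 5.65). Kcnk7 was lowest in undisturbed replicate 1 at 5.09 (next 5.46). Without undisturbed replicate 4 the difference of Kcnk2 was -0.18 and still passed (adjusted p = 0.033).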

How the results depend on the processing

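Across 27 other settings, 17 of which leave out 1 array, the number of members that fell was 3 in all but the mean of all probe sets (2, without Kcnj3), the replicate block (2, without Kcnj4) and the unequal-variance test (2, without Kcnj4), and no member rose in any of them. With the replicate block the difference of Kcnj4 was -0.30 (adjusted p = 0.051), and it changed no other call of a member. The labels do not say whether animals of the same replicate number were paired. Deviations of same-numbered animals correlated between -0.16 and 0.39 over 8 pairs, 3 of them over 0.1. For 1 animal the best correlation was with its own number. Over all genes 672 fell and 241 rose with the block, and what the numbers stand for was not tested. Kcnk2 passed in each setting, with differences from -0.21 to -0.17 (adjusted p at most 0.038). The number of member probe set pairs that differ was 0 to 1 when each array was left out in turn, with 1 only without sleep-deprived replicate 4 (the brightest and the dimmest probe set of Kcnj3), and 0 in the 4 other settings tried. The 36 other members passed in no setting, and 9 members changed sign in at least 1 setting, all without a call. Counts over all genes that moved by over 1.5 times, from 496 lower and 227 higher, were 313 and 129 after adjustment over all probe sets, 324 and 143 in the unequal-variance test, and 341 higher after cyclic loess. Single arrays moved them as far: 307 were lower without undisturbed replicate 4 and 312 without sleep-deprived replicate 5. Without undisturbed replicate 8, 150 were higher. The median difference of all genes lay between -0.023 and 0.0069 over these settings. A shift common to all genes, and small changes in the 13 members with a mean signal under 6, are beyond what these arrays can show.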

Other observations

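Some members are next to each other among the protein-coding genes of the RefSeq table, and 5 such pairs were measured: Kcnj9 with Kcnj10, Kcnj16 with Kcnj2, Kcnk5 with Kcnk16, Kcnj6 with Kcnj15, and Kcnj5 with Kcnj1. No gene of these pairs passed the test. Kcnj6 and Kcnj15 were both positive (0.12 and 0.059), Kcnj9 and Kcnj10 both negative (-0.081 and -0.035), and Kcnj5 and Kcnj1 of opposite sign (0.081 and -0.055). The 3 genes that fell have no other member as a neighbour, and lie on 3 different chromosomes.

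Of the 9 measured oligodendrocyte markers 1, Opalin, fell by 0.41 (limma adjusted p = 0.0020), from 9.75 ± 0.089 (SD, n = 9) to 9.34 ± 0.22 (SD, n = 8), with all 8 sleep-deprived animals below the undisturbed mean; its part in the values of Kcnj10, which oligodendrocytes also express, was not tested.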
